A study of Mus musculus with 6 samples.

Results

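The 10 genes described here carry out segmentation of the paraxial mesoderm, the tissue on either side of the neural tube that is cut into somites. They were chosen by name as presomitic genes (*Tbx6*, *Dll1*, *Dll3*, *Lfng*, *Hes7*), genes of the segment border (*Mesp2*, *Ripply2*) and somite factors (*Tcf15*, *Meox1*, *Uncx*), and all probes annotated with one of these symbols were taken. That gave 12 probes for 10 genes, out of 45281 probes and 19057 genes with a single symbol on the array, with a pair of probes each for *Tbx6* and *Uncx* and 1 probe for each of the others. RNA came from whole mouse embryos of the early somite stages (E8.0 to E8.5, 0 to 4 somites) on a C3H/HeH background, pooled by 8 matched for stage, with 1 Illumina Mouse WG6 v2 array for each pool. There were 3 pools of *Zic2* iso/iso embryos, homozygous for a chemically induced allele that places a premature stop codon in the fifth zinc finger of ZIC2, and 3 pools of wildtype embryos from litters of the same heterozygous parents. No agent was given and embryos of both sexes were used. The allele arose in C57BL/6J males, so DNA of that strain linked to *Zic2* cannot be told apart from the mutation itself.

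Somites bud off in pairs, in head to tail order, from the presomitic mesoderm. In that tissue Notch, Wnt and Fgf target genes switch on and off in a cycle known as the segmentation clock, and each cycle ends when MESP2 sets a new border and the cells in front of it turn into an epithelial somite. Somite number is therefore the usual measure of age at this stage, and transcripts of the formed somites accumulate as somites are added while those of the presomitic tissue persist.

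Each value is a log2 probe intensity after quantile normalisation of the 6 arrays. Every probe was fitted with limma, p-values were adjusted over all 45281 probes (Benjamini-Hochberg, threshold 0.05), and differences are *Zic2* iso/iso minus wildtype. A background level of 7.47 was set by probes for olfactory receptors and similar genes. A gene whose mean over the 6 pools was below it had no level that could be read, and because background signal is still part of each intensity, a dim gene's difference understates that of its transcript. Before normalisation the array of *Zic2* iso/iso pool 1 was the brightest, with a median intensity of 187, against 164 and 154 for *Zic2* iso/iso pools 2 and 3 and 158 to 164 for the wildtype pools. Pool 1 was also the mutant pool with the lowest normalised *Tcf15* and *Meox1* values given below, though not the lowest before normalisation, and the part of array brightness in them was not tested. Of the probes for *Zic2* itself, the one with more signal read 7.64, 7.57 and 8.01 in *Zic2* iso/iso pools 1 to 3, against 8.27, 8.06 and 8.00 in wildtype pools 1 to 3 (adjusted p = 0.614 from limma). The dimmer *Zic2* probe, near the background level, differed the other way. It read 7.56, 7.60 and 7.46 in *Zic2* iso/iso pools, against 7.28, 7.53 and 7.46 in wildtype pools (adjusted p = 0.920 from limma). These comparisons do not check the labels, because a stop codon need not remove the transcript. Pools are the replicates. The p-values from limma set the difference between genotypes against the spread between pools, with each probe's variance drawn towards a prior from all probes.

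None of the 12 probes passed the test, where 0.0442% of all probes did (20 probes, 18 of them lower). The somite factors *Tcf15* and *Meox1* had the widest gaps between genotypes, both towards lower values in *Zic2* iso/iso embryos, while the presomitic and border genes differed by at most 0.13 on the log2 scale in either direction. Without adjustment, 3 of the 12 probes had p under 0.05, all 3 lower, and they belonged to *Tcf15*, *Meox1* and *Uncx*. Of all probes 6.02% had such a p, in nearly equal numbers lower (1396) and higher (1331). By gene, taking for each the probe with the most signal, these were 2 of 10 genes, where 7.65% of all genes had an unadjusted p under 0.05. The median difference over the 10 genes was 0.0027, against -0.0038 over all genes, with 5 lower and 5 higher. Of the 10 genes, 7 had a mean above the background level (5 lower and 2 higher, median -0.13), and *Dll3*, *Lfng* and *Mesp2* did not.

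**Figure D1:**
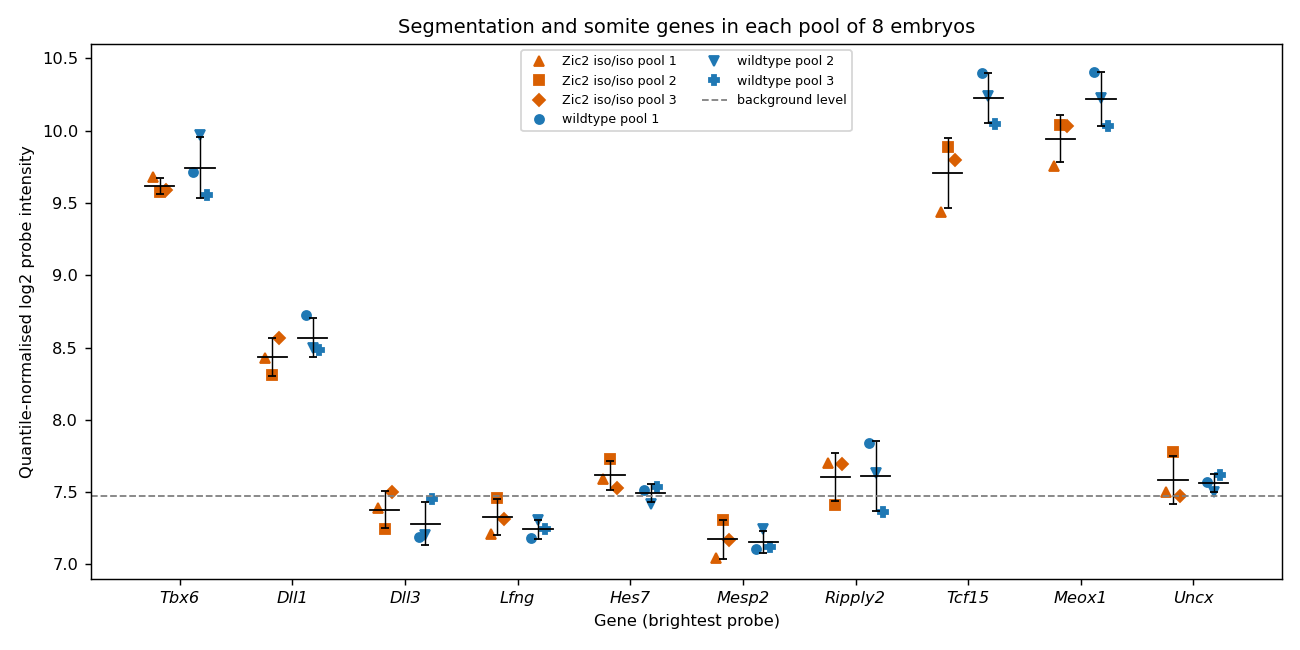
Normalised intensity on the log2 scale (vertical axis) of the 10 genes, each read by its probe with the most signal, in pools of *Zic2* iso/iso (orange, left) and wildtype embryos (blue, right). Horizontal bars are means with the SD of 3 pools as error bars, and a dashed line marks the background at 7.47. Only for *Tcf15* do the 3 *Zic2* iso/iso pools lie wholly below the 3 wildtype pools.

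*Tcf15*, also known as paraxis, encodes a basic helix-loop-helix factor that somites need to become epithelial. It read 9.43, 9.89 and 9.80 (log2 intensity) in *Zic2* iso/iso pools 1, 2 and 3, against 10.40, 10.24 and 10.05 in wildtype pools 1, 2 and 3. Every *Zic2* iso/iso pool was below every wildtype pool, with pool 1 of the mutants lowest and pool 1 of the wildtype highest. The mean was 9.71 ± 0.24 in *Zic2* iso/iso and 10.23 ± 0.17 in wildtype embryos (SD, n = 3 pools each), a log2 difference of -0.52 (standard error 0.11, 95% interval -0.77 to -0.27), or 0.697 of the wildtype intensity. This difference did not pass the test (unadjusted p = 6.1e-04, adjusted p = 0.269 from limma), and permuting the pools exactly (two-sided) gave a permutation p = 0.1, the smallest that 3 pools against 3 allow. In whole embryos, fewer somite cells and less RNA per somite cell cannot be told apart. The intensities before any normalisation were 866, 943 and 778 in *Zic2* iso/iso pools and 1243, 1256 and 1003 in wildtype pools, and the pools were apart on that scale as well. The difference was -0.38 without *Zic2* iso/iso pool 1 and -0.61 without *Zic2* iso/iso pool 2, with adjusted p = 0.505 and 0.249 from limma.

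*Meox1* encodes a homeobox factor of the early somite and, later, of its sclerotome. It read 9.76, 10.04 and 10.03 in *Zic2* iso/iso pools 1 to 3, against 10.41, 10.22 and 10.03 in wildtype pools 1 to 3. The pools stood in nearly the same order as for *Tcf15*, with *Zic2* iso/iso pool 1 lowest and wildtype pool 1 highest, but here *Zic2* iso/iso pool 2 was above wildtype pool 3 and the genotypes overlapped. The intensities before any normalisation were 1086, 1051 and 914 in *Zic2* iso/iso pools and 1248, 1243 and 997 in wildtype pools. On that scale pool 1 was the highest mutant pool, and the genotypes overlapped as well. The means were 9.94 ± 0.16 in *Zic2* iso/iso and 10.22 ± 0.19 in wildtype embryos (SD, n = 3 each), a difference of -0.28 (standard error 0.10, 95% interval -0.50 to -0.06). It missed the threshold (unadjusted p = 0.017, adjusted p = 0.744 from limma; exact permutation p = 0.2). With each pool left out in turn, the gap ran from -0.37 (without wildtype pool 3) to -0.18 (without *Zic2* iso/iso pool 1).

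*Uncx* encodes a homeobox factor of the posterior part of each somite, and its probes were both near the background level and disagreed. The probe with more signal had 7.50, 7.78 and 7.47 in *Zic2* iso/iso pools, against 7.57, 7.50 and 7.62 in wildtype pools, overlapping ranges with a difference of 0.02 (standard error 0.08, adjusted p = 0.993 from limma). The dimmer probe had 7.30, 7.34 and 7.36 in *Zic2* iso/iso pools, all under the background level, against 7.46, 7.60 and 7.58 in wildtype pools, 2 of which were above it. All its *Zic2* iso/iso pools were below all its wildtype pools (difference -0.21, standard error 0.07, unadjusted p = 0.0068, adjusted p = 0.654 from limma). With *Tcf15*, that made 2 of 12 probes on which the *Zic2* iso/iso pools lay wholly below the wildtype pools, where 5.46% of all probes did.

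**Figure D2:**
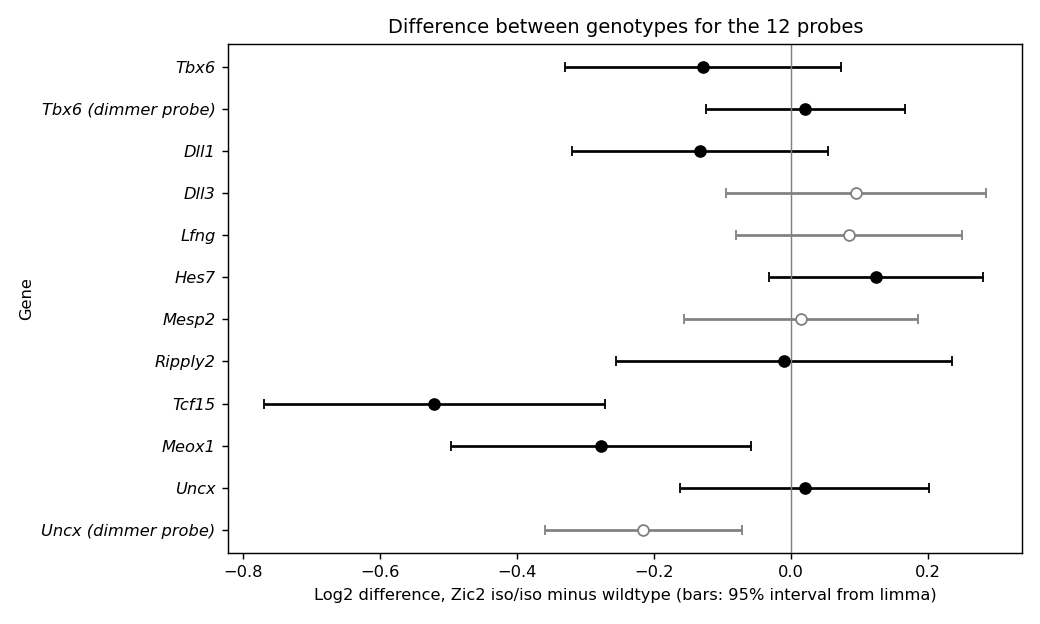
Log2 difference between *Zic2* iso/iso and wildtype pools (horizontal axis) for each of the 12 probes, with the 95% interval from limma without adjustment for the number of probes. Filled points have a mean above the background level and open grey points one below it. The intervals of *Tcf15* (-0.77 to -0.27), *Meox1* (-0.50 to -0.06) and the dimmer *Uncx* probe (-0.36 to -0.07) lie below 0, and those of the other 9 probes include it.

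*Tbx6* encodes the T-box factor that commits cells of the tail end to presomitic mesoderm rather than neural tissue. Its main probe read 9.68, 9.58 and 9.59 in *Zic2* iso/iso pools, against 9.71, 9.97 and 9.56 in wildtype pools. The 3 mutant pools were close together and lay within the wildtype range, which was set by a high wildtype pool 2. The means of 9.62 ± 0.06 in *Zic2* iso/iso and 9.74 ± 0.21 in wildtype embryos (SD, n = 3 each) gave a difference of -0.13 (95% interval -0.33 to 0.07, adjusted p = 0.934 from limma). When single pools were left out it ran from -0.22 (without wildtype pool 3) to -0.02 (without wildtype pool 2). The second *Tbx6* probe, dimmer but above background in all 6 pools, read 7.69 ± 0.07 in *Zic2* iso/iso and 7.67 ± 0.05 in wildtype embryos (SD, n = 3 each), with a difference of 0.02 (95% interval -0.12 to 0.17). Neither probe separated the genotypes.

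The Notch ligands differed between genotypes by less than the spread of their pools. *Dll1*, which encodes the activating ligand of the presomitic mesoderm and of other tissues such as the neural tube, read 8.43, 8.31 and 8.57 in *Zic2* iso/iso pools and 8.72, 8.497 and 8.48 in wildtype pools. Its pools overlapped, with a difference of -0.13 (95% interval -0.32 to 0.05, adjusted p = 0.918 from limma). Leaving out single pools gave -0.20 (without *Zic2* iso/iso pool 3) to -0.06 (without wildtype pool 1). *Dll3* encodes a divergent ligand that dampens Notch signalling within the cell that makes it. It was under the background level in all but *Zic2* iso/iso pool 3 (7.39, 7.25 and 7.50 in *Zic2* iso/iso pools, 7.19, 7.20 and 7.45 in wildtype pools), so no difference could be read.

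The clock oscillators gave little signal. *Hes7* encodes the basic helix-loop-helix repressor whose delayed feedback on its own promoter drives the mouse clock. It read 7.59, 7.73 and 7.53 in *Zic2* iso/iso pools, against 7.51, 7.42 and 7.54 in wildtype pools, above background in 5 of the 6 pools. The pools overlapped in a narrow band, and the difference of 0.12 (95% interval -0.03 to 0.28) was not past the threshold (adjusted p = 0.90 from limma). Across fits without a single pool it was 0.07 (without *Zic2* iso/iso pool 2) to 0.17 (without *Zic2* iso/iso pool 3). *Lfng* encodes the Fringe glycosyltransferase that modifies Notch and is itself a cycling target. It was under the background level in every pool, at 7.21 to 7.46 in *Zic2* iso/iso and 7.18 to 7.31 in wildtype embryos. Embryos of a pool can be in different phases of the cycle, so the level of a cycling gene in a pool is an average over phases.

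Promoter sequence is shown for these oscillators and for *Mesp2* and *Tbx6* so that their known inputs can be read beside their values. A window before the annotated start was in the RefSeq table (GRCm38.p6) for 8 of the 10 genes, and the 250 bases before each start were searched on both strands for the RBPJ site of the Notch pathway (GTGGGAA), an E-box (CACGTG), a T-box core (AGGTGT) and a core of the Zic motif (CCTGCTG). Of 32851 such windows of all genes, 5.42% hold the RBPJ letters, 6.02% the E-box, 11.8% the T-box core and 8.44% the Zic core. Matches occurred in 3 of the 8 genes. In *Lfng* an E-box at -112 and an RBPJ site at -109 overlap, in *Hes7* there is an RBPJ site on the reverse strand at -180, and in *Mesp2* a Zic core on the reverse strand at -12, each position giving the first base of the match before the start. Such a match is a description of letters, not evidence of binding, and capitals mark the matches in the sequences, all of which are on the plus strand and given 5′ to 3′. For *Hes7* only the 30 bases around the match are given, because its window lies within the annotated extent of the gene.
Lfng, chr5:140607091-140607340: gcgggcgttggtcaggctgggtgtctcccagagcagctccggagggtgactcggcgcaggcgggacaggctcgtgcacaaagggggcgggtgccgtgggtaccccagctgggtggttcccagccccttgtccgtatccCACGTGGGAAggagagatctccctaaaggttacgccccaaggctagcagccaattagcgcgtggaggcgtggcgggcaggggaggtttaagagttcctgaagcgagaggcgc
Hes7, chr11:69120262-69120291: cctcccctcacTTCCCACatttggggctag
Mesp2, chr7:79810477-79810726: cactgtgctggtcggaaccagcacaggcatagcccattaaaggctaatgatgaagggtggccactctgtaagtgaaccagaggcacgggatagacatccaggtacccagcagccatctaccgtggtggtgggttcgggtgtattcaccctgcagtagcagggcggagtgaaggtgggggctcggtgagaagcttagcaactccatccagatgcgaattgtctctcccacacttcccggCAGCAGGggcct
Tbx6, chr7:126781233-126781482: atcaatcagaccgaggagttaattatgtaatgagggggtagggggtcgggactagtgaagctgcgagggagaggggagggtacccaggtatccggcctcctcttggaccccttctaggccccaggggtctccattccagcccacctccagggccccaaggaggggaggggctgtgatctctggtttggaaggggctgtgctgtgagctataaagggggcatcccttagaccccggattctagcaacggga

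The genes of the segment border did not separate the genotypes either. *Mesp2*, which encodes the factor that positions the border and shuts down the clock in front of it, was under the background level in every pool, at 7.04 to 7.31 in *Zic2* iso/iso and 7.10 to 7.24 in wildtype embryos. *Ripply2* encodes a co-repressor that is switched on by MESP2 and removes TBX6, closing the cycle. It read 7.70, 7.41 and 7.69 in *Zic2* iso/iso pools, against 7.84, 7.63 and 7.36 in wildtype pools. Each genotype thus had a pool below the background level and 2 above it, and the difference was -0.01 (95% interval -0.25 to 0.24, adjusted p = 0.998 from limma), with a sign that turned between ways of scaling the arrays.

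Since the somite and presomitic genes are guides to stage, their values were also set out pool by pool, beside other genes known to rise at this age. For each group the mean deviation from a gene's average over the 6 pools was taken on the log2 scale, over genes above background. The 3 somite factors gave -0.31, 0.03 and -0.11 in *Zic2* iso/iso pools 1 to 3, against 0.25, 0.11 and 0.03 in wildtype pools 1 to 3. The 4 presomitic and border genes above background (*Tbx6*, *Dll1*, *Hes7* and *Ripply2*) gave 0.01, -0.08 and 0.01 in *Zic2* iso/iso pools, against 0.11, 0.04 and -0.10 in wildtype pools. Thus the lowest somite value was in *Zic2* iso/iso pool 1, whose presomitic value was near the average. The difference between the 2 groups of genes, which a shift of a whole array cannot change, was -0.33, 0.11 and -0.12 in *Zic2* iso/iso pools and 0.14, 0.07 and 0.13 in wildtype pools, so that *Zic2* iso/iso pool 2 was within the wildtype range and pools 1 and 3 were below it.

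Heart muscle and primitive blood ordered the pools in another way. The 10 cardiac sarcomere genes above background gave -0.03, 0.05 and -0.61 in *Zic2* iso/iso pools, against 0.27, -0.0037 and 0.33 in wildtype pools. All 11 measured sarcomere genes had negative differences (median -0.43), although 1 of them, *Myh7*, was below background in every pool. An unadjusted p under 0.05 was found for 5 of the 11 (45.5%), and for 7.65% of all genes. The summed intensities of the 11 genes were 9341 to 17688 in *Zic2* iso/iso and 17634.5 to 22980 in wildtype pools, ranges that just overlap. *Myl4*, the atrial light chain gene with the most signal on this list, had a difference of -0.61 (adjusted p = 0.611 from limma). The 7 embryonic globin and erythroid genes gave 0.39, -0.21 and -0.69 in *Zic2* iso/iso pools, against -0.09, 0.35 and 0.25 in wildtype pools, and their sums (8 genes measured) ran from 7473 to 14115 in *Zic2* iso/iso and 8134 to 17792 in wildtype pools. *Hba-a1*, an alpha globin gene and the one with the most signal there, differed by -0.38 (adjusted p = 0.948 from limma). It read 11.98, 12.36 and 12.52 in *Zic2* iso/iso pools 1 to 3, against 11.77, 13.6 and 12.63 in wildtype pools. Its order among the mutant pools was thus the reverse of that of the group mean. *Hbb-bh1* and *Hba-x*, further globin genes, had the largest differences on this list, at -0.93 and -0.80 (adjusted p = 0.929 and 0.918 from limma). *Hbb-bh1* read 12.87, 10.75 and 9.04 in *Zic2* iso/iso pools, against 11.55, 11.74 and 12.17 in wildtype pools. Among the mutant pools both had the order of the group mean. By group mean, *Zic2* iso/iso pool 3 was lowest for both heart and blood, whereas *Zic2* iso/iso pool 1, lowest for the somite factors, was highest for blood. The part of stage in the *Tcf15* and *Meox1* values was not tested. Without *Zic2* iso/iso pool 3, the pool lowest for heart and blood, the difference for *Tcf15* was -0.57 and that for *Meox1* -0.32 (adjusted p = 0.419 and 0.785 from limma). Without pool 1, the mutant pool lowest for the somite factors, they were -0.38 and -0.18 (adjusted p = 0.505 and 0.880 from limma).

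**Figure D3:**
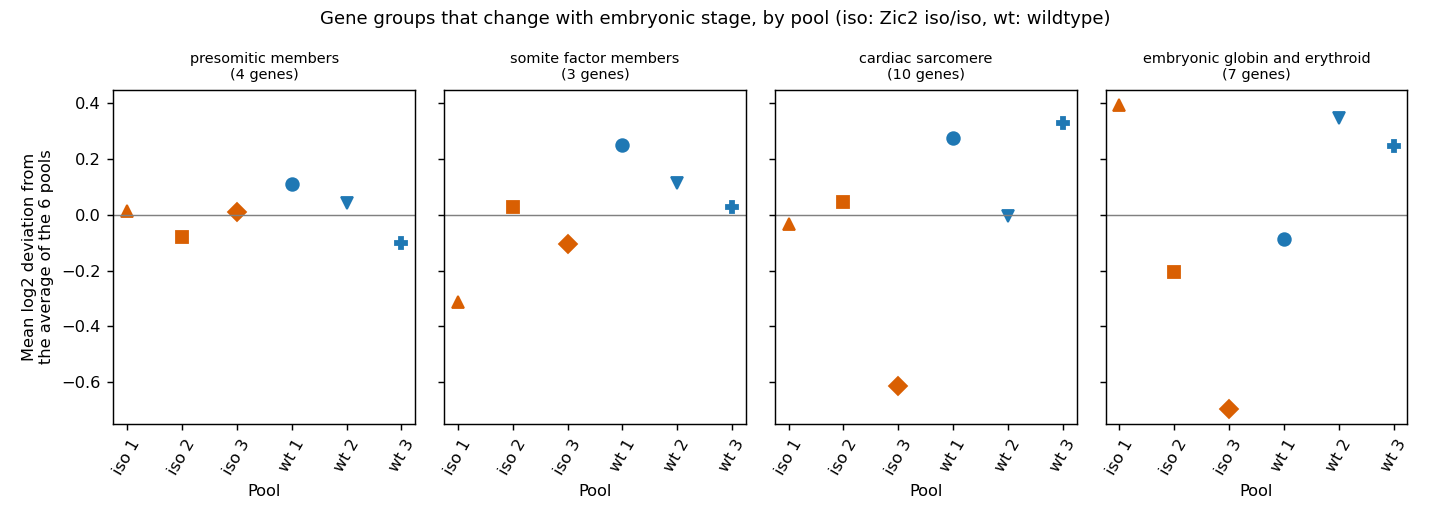
Mean log2 deviation from the average of the 6 pools (vertical axis) for 4 groups of genes in each pool of *Zic2* iso/iso (orange) and wildtype embryos (blue). *Zic2* iso/iso pool 1 is lowest for somite factors (-0.31) and highest for globin and erythroid genes (0.39), while pool 3 is lowest for cardiac (-0.61) and erythroid genes (-0.69).

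Summed intensities of lists for tissues beside the mesoderm overlapped between the genotypes. For the 14 yolk sac endoderm genes (13 above background), summed intensities were 42162 to 61207 in *Zic2* iso/iso and 37696 to 51973 in wildtype pools, and *Ttr*, a carrier of thyroid hormone, differed by 0.15. For 9 trophoblast and decidual genes the sums were 5310 to 5838 in *Zic2* iso/iso and 5676 to 6012 in wildtype pools (*Prl2c2*, a placental hormone gene, at 0.04), and for 10 neural plate genes 4503 to 5087 in *Zic2* iso/iso and 4826 to 5369 in wildtype pools (*Otx2*, a head patterning gene, at 0.06). Single genes of these lists did separate the pools. These were 2 of 14 yolk sac genes (14.3%), 1 of 10 neural plate genes (10%) and no trophoblast or decidual gene. Of all genes, 10.9% had pools that did not overlap. *Apob*, which encodes the main protein of lipoproteins, read 11.32, 10.91 and 11.26 in *Zic2* iso/iso pools against 10.64, 10.66 and 10.69 in wildtype pools (difference 0.50, adjusted p = 0.147 from limma). *Pou3f1*, a POU factor gene of the anterior neural plate, read 9.23, 9.55 and 9.70 in *Zic2* iso/iso pools against 10.11, 9.91 and 9.88 in wildtype pools (difference -0.47, adjusted p = 0.308 from limma). The mutant pools were all higher for *Apob*, and for *Fgb*, which was below background, and all lower for *Pou3f1*. No gene of these 3 lists, nor of the heart and blood lists, passed the test.

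Of 78 other names of the segmentation machinery, 71 had a probe, and 49 of these genes were above the background level. *Msgn1* and *T*, which mark presomitic mesoderm and its precursors, were among the 7 not analysed here. None of the 71 passed the test, where 0.0945% of all genes did. Their median difference was 0.02 (all genes -0.0038), and 4 had an unadjusted p under 0.05 in the lower direction and 5 in the higher, together 12.7%. Such a p was found for 7.65% of all genes and for 11.1% of all genes above background. The pools did not overlap for 4 lower and 3 higher genes, or 9.86%, where 10.9% of all genes did not overlap. Of the lower ones only *Foxc2* was above background (*Notch2*, *Ripply1* and *Pax7* were not), whereas the higher ones (*Hes5*, *Cdx2* and *Mesp1*) all were. Among the 49 genes above background, 18 were lower and 31 higher, where 5485 of all genes above background were lower and 4953 higher. For each role the pair of genes with the largest differences above background is given, with a few others beside them.

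No gene of the presomitic mesoderm and tail bud list passed the test. The 7 measured genes had positive differences (0.09 to 0.32, median 0.13), with overlapping pools for 6 of them. Of the presomitic and border members above background, *Tbx6* and *Dll1* were both at -0.13, *Ripply2* at -0.01 and *Hes7* at 0.12. The second *Tbx6* probe was at 0.02. The pools were apart for *Cdx2*, a homeobox gene of posterior growth, with 12.52, 12.40 and 12.66 in *Zic2* iso/iso pools against 12.34, 12.20 and 12.07 in wildtype pools. Its difference was 0.32 (standard error 0.09, adjusted p = 0.495 from limma). *Nkx1-2*, a homeobox gene of the precursors that feed both neural tube and somites, was at 0.24 with overlapping pools. *Mesp1*, from the segment border list and the neighbour and relative of *Mesp2* that is first used in nascent mesoderm and in heart precursors, read 8.63, 8.78 and 8.66 in *Zic2* iso/iso pools against 8.34, 8.38 and 8.28 in wildtype pools. Here too the pools were apart (difference 0.35, standard error 0.07, unadjusted p = 1.9e-04, adjusted p = 0.156 from limma). *Ripply3*, a pharyngeal relative of *Ripply2*, was at -0.19.

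Among 20 measured genes of somite differentiation, 13 were lower and 7 higher, where 9894 of all genes were lower and 9163 higher. Only 10 of the 20 were above background, with 7 lower and 3 higher. *Foxc2*, a forkhead gene of somites and other mesoderm, read 7.54, 7.66 and 7.68 in *Zic2* iso/iso pools against 7.98, 7.95 and 8.05 in wildtype pools. All its mutant pools were lower, by -0.36 on average (standard error 0.07, unadjusted p = 1.4e-04, adjusted p = 0.142 from limma). Its partner *Foxc1*, which acts with it in forming somites, was at -0.07 with overlapping pools, and *Pdgfra*, a growth factor receptor gene of paraxial mesoderm, at 0.14. The genes of later somite derivatives, *Pax1*, *Pax3* and *Meox2*, were under the background level in all 6 pools.

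The signals that run the clock differed little. Of 14 measured genes of the Notch pathway, the target *Hes5* had 8.28, 8.29 and 7.91 in *Zic2* iso/iso pools, against 7.86, 7.90 and 7.74 in wildtype pools. Its pools were narrowly apart (difference 0.33, standard error 0.10, adjusted p = 0.614 from limma), and *Hes5* is also a target in the neural plate. The Fringe gene *Mfng* was at 0.19, while the Notch targets *Hes1*, *Hey1* and *Nrarp* were at -0.07, -0.07 and -0.05. Of 9 measured Wnt genes, the feedback inhibitor *Nkd1*, a cycling gene, was at -0.22 and the ligand gene *Wnt3a* at 0.09. Of 12 measured Fgf genes, the ligand gene *Fgf8* was at 0.18 and its feedback target *Dusp6* at 0.16. None of these 3 sets had a gene past the test.

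**Figure D4:**
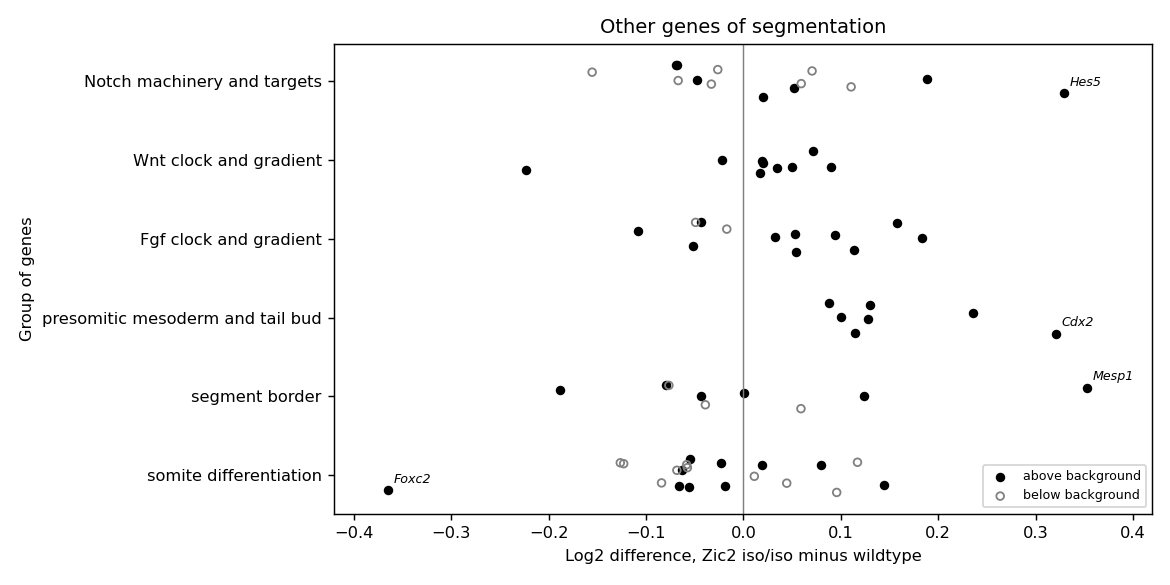
Log2 difference between *Zic2* iso/iso and wildtype pools (horizontal axis) of 71 other genes of segmentation, grouped by role, with filled points above the background level and open points below it. Vertical scatter within a row only separates the points. *Mesp1* (0.35), *Hes5* (0.33), *Cdx2* (0.32) and *Foxc2* (-0.36) lie farthest from 0, and no gene passed the test.

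The genes whose values followed those of *Tcf15* most closely over the 6 pools were *Stk32a*, a kinase gene, *Tbx1*, a T-box gene of pharyngeal and head mesoderm, and *Slc12a2*, an ion transporter gene (Pearson's r = 0.99 for each). *Tbx1* read 8.19, 8.40 and 8.32 in *Zic2* iso/iso pools against 8.70, 8.60 and 8.52 in wildtype pools, the same order of pools as *Tcf15*. For *Tbx6* they were *Nthl1*, a DNA repair gene, *Rbm42*, which encodes an RNA-binding protein, and *Zfp128*, a zinc finger gene (r = 0.98, 0.97 and 0.97). These are the highest of 9191 genes above background in all pools, ranked over 6 points that share their arrays, and are given as a description.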

How the data were processed

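RNA from 6 pools of whole embryos, 3 of each genotype, was hybridised to Illumina Mouse WG6 v2 arrays. The authors deposited linear probe intensities, neither background-subtracted nor normalised between arrays (lowest value 104 to 122 per array), and the variance stabilising normalisation of their methods is not in them. Groups came from the sample titles. Intensities were floored at 1, converted to log2, quantile normalised and fitted with limma 3.58.1 (lmFit, eBayes) in R 4.3.3 without covariates, after the steps had been tested on simulated data. Of the probes, 34885 had 1 symbol, updated through RefSeq (GRCm38.p6), 18 several and 10378 none. The background level is the 95th percentile of 1606 probes (means of log2 values) for receptors of smell and pheromones, keratin-associated proteins and defensins, and 40.7% of probes exceeded it.

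The members and gene lists were chosen with earlier results of these data known. Named genes are the members, for each role in segmentation the pair with the largest change above background, for each tissue list the gene with the most signal, and the 3 genes most like *Tcf15* and *Tbx6*. Others were chosen after their values were seen. Alternatives covered scaling, background correction, a filter on dim probes, the variance prior, array weights, the replicate block, each pool left out, the threshold (0.01 and 0.10) and averaging a gene's probes. The number of arrays limits the precision.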

Additional observations from a re-analysis of the deposited data

How the results depend on the processing

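None of the 12 probes and none of the 71 other segmentation genes passed the test under any alternative tried, although the number of all probes that passed varied (4 without normalization between arrays, 11 with median centring, 31 with an intensity trend and 34 at a threshold of 0.10, against 20; 14 to 29 when 1 pool was left out). *Tcf15* kept its direction in all 16 alternatives, at -0.61 to -0.38 with adjusted p of 0.190 to 1.00 from limma, and so did *Meox1* at -0.37 to -0.18, *Tbx6* at -0.22 to -0.02, *Dll1* at -0.20 to -0.04 and *Hes7* at 0.07 to 0.21. The sign turned for *Ripply2* without normalization (0.058), with median centring (0.0096) and with variance stabilising normalisation (0.0046), for *Mesp2* with median centring (-0.0043) and for *Uncx* with the mean of its probes (-0.10). When single pools were left out, *Ripply2* ran from -0.14 to 0.11, *Mesp2* from -0.053 to 0.078 and *Uncx* from -0.076 to 0.076. The median over the 10 genes was -0.13 with the filter on dim probes, which left 7 of them, and -0.069 to 0.0062 with 1 pool left out. The value of the presomitic group was 0.04 without normalization, against -0.04, where the median over all probes was itself at 0.05, and it was -0.0084 with each array centred on its median.

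No pairing by replicate number was seen. Same-numbered pools had correlations of their deviations of -0.08, -0.01 and -0.07, and differently numbered pools -0.02 to 0.08. With 3 pools of each genotype, such correlations cannot show that the pools were unpaired. With the replicate block 17 probes passed, none of them a member, and the median over the 10 genes stayed at 0.0027, with *Tcf15* at an adjusted p of 0.493 from limma. Signal over background limits *Dll3*, *Lfng* and *Mesp2*, for which no level could be read, and a change in few cells of the embryo could be missed.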
